A study of Mus musculus with 8 samples.

Results

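Chromosome 8 of the mouse carries Terf2ip, the gene that encodes RAP1, and the arrays of this study carry 1021 probes placed in intervals of that chromosome that are named only by their position. These lincRNA interval probes were taken as every non-control probe whose systematic name is a genomic interval starting with chr8, on the mm9 build of the array annotation, and they are 1021 of 55681 non-control probes. They lie in 217 intervals between 4325209 and 131182125, which merge into 127 loci where intervals overlap. Names end in F for 509 probes and in R for 512, read here as the forward and the reverse strand, a meaning that the files do not spell out. An interval was between 77 and 360001 bp long, with a median of 6988 bp, and where a probe sits inside its interval was not analysed here. Whether an interval lies in an exon, an intron or a UTR of an annotated gene was not analysed here.

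RNA came from the liver of 8 mice of 10 weeks, 1 mouse per array, as 4 biological replicates of each genotype. Both genotypes were on a mixed background, C57BL6/129SV (90%:10%). Wild-type (WT) mice were compared with Rap1 -/- mice, which lack the gene in the whole body from early development. The study made them by crossing Rap1 flox/flox mice with mice that carry cre under the EIIa promoter, which acts in the early embryo, and then bred the cre allele out. The study describes its young animals as females, and the labels give neither sex nor feeding state. Each of 2 slides held 2 WT and 2 Rap1-deficient livers, with replicates 1 and 2 of both genotypes on slide 1. On both slides the WT samples took positions 1 and 2 and the Rap1-deficient samples positions 3 and 4, so position and genotype cannot be told apart.

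RAP1 is a member of shelterin, the protein complex that covers telomeres, and it also binds sites along the chromosome arms, where it can affect transcription. Long intergenic noncoding RNAs (lincRNAs) are transcripts from between protein-coding genes, and many were first mapped as stretches that carry the chromatin marks of active promoters and transcribed bodies. Most are less abundant than messenger RNAs and more restricted to particular tissues. Probes for both strands are useful for such intervals because the direction of transcription was not always known when arrays were designed. The comparison asks which of the chromosome 8 intervals gave a different signal in liver without RAP1.

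No interval probe of chromosome 8 passed the test between genotypes. The deposited intensities were taken to log2 and set relative to each array's 75th percentile, a scale on which 0 is that percentile and 1 unit is a doubling of signal. Every value called a level below is on this scale, every log2 fold change is Rap1 -/- minus WT, and SE is its standard error from limma. Of the 1021 probes, 434 (217 F and 217 R, in 163 intervals) met the filter for testing, a signal well above background on 4 or more arrays of any genotype, and 1 limma fit was made over all 31068 probes that met it. None of the 434 had a Benjamini-Hochberg adjusted p under 0.05 (smallest 0.809), against 2 of the 31068 probes of the whole array (0.00644%). An unadjusted p under 0.05 was found for 20 of the 434 (4.61%), against 6.12% of all probes tested. Of these 20, 18 were lower in Rap1-deficient liver (4.15% of members) and 2 were higher (0.461%), beside 3.3% and 2.81% of all probes. Interval probes of other chromosomes also leaned to lower values, with 5.49% lower and 1.82% higher. The share of the chromosome 8 probes at this level was below that of all probes here. In 6 of 19 other settings it was above it, for example within slide 2 (5.99% against 4.03%) and without WT replicate 2 (7.83% against 5.98%). The split also moved with the scaling. Under quantile normalization of the same signals 6 were lower and 8 higher, and under normexp correction with quantile normalization, or in the authors' own table, 5 were lower and 2 higher.

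The genotype labels were checked with the targeted gene, on the same chromosome. The Terf2ip probe A_52_P381806 had a mean level of 0.14 ± 0.09 (SD, n = 4) in WT liver and was not well above background on any Rap1-deficient array, which puts it at least 19-fold lower there (limma adjusted p = 7.09e-06). A second Terf2ip probe, A_55_P2094079, had levels from -1.12 to -0.69 in WT and from 0.03 to 0.44 in Rap1-deficient liver, a log2 fold change of 1.20 (SE 0.15, adjusted p = 0.127). The other probe past the threshold was one of Chst4, a sulfotransferase gene also on chromosome 8, which was at least 2.61-fold lower (adjusted p = 0.00608). The transcription factor gene Zfhx3, of the same chromosome, had a log2 fold change of -1.21 (SE 0.13, adjusted p = 0.0987). The distance from Terf2ip to each interval was not analysed here, since the sources used here do not give its mm9 position. All 6 hepatocyte markers (Alb, Apoa1, Ttr, Tat, Cyp2e1 and Cps1) were well above background on 8 of 8 arrays. Their summed level was between 11.98 and 12.10 in WT and between 11.88 and 11.97 in Rap1-deficient liver, and its part in the results was not tested. No marker of Kupffer cells, sinusoidal endothelium, cholangiocytes, stellate cells, neutrophils, lymphocytes or erythroid cells passed the adjusted p, beside 0.00644% of all probes. Median log2 fold changes of these lists were, in that order, -0.16, 0.15, 0.41, -0.09, -0.70, -0.16 and 0.23. Unadjusted p was under 0.05 for 1 of 6 hepatocyte, 1 of 4 endothelial and 1 of 4 cholangiocyte markers, beside 6.12% of all probes. Of 3 adipocyte markers, 0 met the filter. In whole liver, fewer cells of a type and less RNA per cell cannot be told apart.

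How many of the probes gave a signal differed between mice, and the genotypes differed by less than that spread. In WT liver 431, 400, 473 and 580 of the 1021 probes were well above background, and in Rap1-deficient liver 354, 419, 452 and 454. The highest count was that of WT replicate 4 and the lowest that of Rap1 -/- replicate 1, and the other 6 arrays of both genotypes lay between 400 and 473. The means were 471 ± 78.6 and 419.75 ± 46.7 (SD, n = 4 each), a difference of -51.25 probes (two-sided exact permutation test over 70 partings, p = 0.371, where 0.0286 is the smallest p possible). Without WT replicate 4 the difference was -14.9 probes, and without WT replicate 2 it was -74.9. Over all non-control probes 57.7% and 55.0% were well above background (exact permutation p = 0.514), and WT replicate 4 and Rap1 -/- replicate 1 were again the highest and the lowest. The signal at the 75th percentile was between 179 and 209 in WT and between 220 and 227 in Rap1-deficient arrays, which did not overlap, and its part in the counts was not tested.

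**Figure D1:**
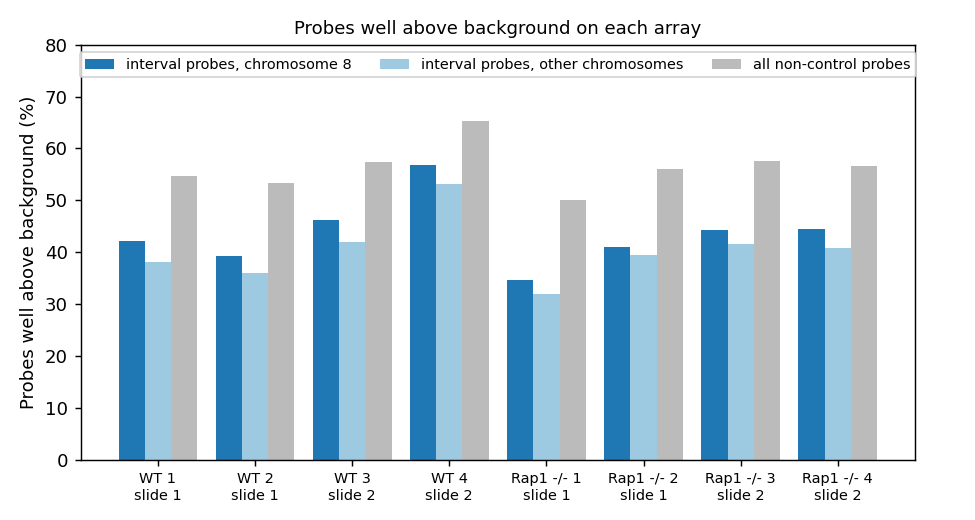
Share of probes well above background (y axis, percent) on each array (x axis), for the 1021 interval probes of chromosome 8, interval probes of other chromosomes and all non-control probes. WT replicate 4 had the highest share (56.8% of the chromosome 8 probes) and Rap1 -/- replicate 1 the lowest (34.7%), in all 3 sets.

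Over the 8 arrays, 317 of the 1021 probes were well above background on every array and 356 on none. No probe was above background on 4 of 4 arrays of one genotype and 0 of 4 of the other. The share that met the filter was 42.5%, between that of the 15173 interval probes of other chromosomes (39.4%) and that of all probes (55.8%). Where an interval had several probes on a strand, they often differed in whether they gave signal. Of 212 interval strands with 3 or more probes, all probes met the filter on 34, some on 128 and none on 50. Of the 72 intervals with probes on both strands, 45 had tested probes on both, 12 on F only, 11 on R only and 4 on neither.

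Differences between genotypes were small for most of the 434 tested probes. The log2 fold change was within 0.5 of no change for 404 of them, 90% of values lay between -0.52 and 0.31, and 3 were beyond 1. The median was -0.09, with 289 of 434 probes (66.6%) below 0, while the median over all 31068 probes was -0.0017. Interval probes of other chromosomes had a median of -0.08, with 64.5% below 0, so values below 0 were about as frequent there. The median differed by the brightness of the probe. It was -0.23 for the 190 members in the dimmest of 4 equal bins of all tested probes. All probes had a median of -0.10 in that bin, and interval probes of other chromosomes -0.11. The members' median was -0.05, -0.04 and -0.07 for the 152, 74 and 18 members of the next 3 bins. Interval probes of other chromosomes had -0.08, -0.06 and -0.05 in these bins, and all probes -0.03, 0.01 and 0.05. Under quantile normalization the median of the members was -0.03, and it was -0.01 with normexp or in the authors' table. Groups did not overlap, with every Rap1-deficient liver below every WT liver, for 5 members (1.15%, against 1.81% of all probes), and with every Rap1-deficient liver above for 1 (0.23%, against 2.39%).

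Along the chromosome, the tested probes were spread over all parts of it. With the intervals put in order of their start and cut into 4 parts of 54, 54, 54 and 55 intervals, 103, 69, 118 and 144 probes were tested. Their median log2 fold changes were -0.14, -0.11, -0.08 and -0.08 from the first part (4325209 to 35703370) to the last (106619342 to 131182125). Probes at an unadjusted p under 0.05 numbered 7 of 103, 1 of 69, 6 of 118 and 6 of 144. Over all parts this was 4.61%, against 6.12% of all probes tested. All were lower in Rap1-deficient liver except 1 in each of the first and second part. The part with the fewest such probes, from 37237193 to 69417583, was also that with the fewest tested probes.

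**Figure D2:**
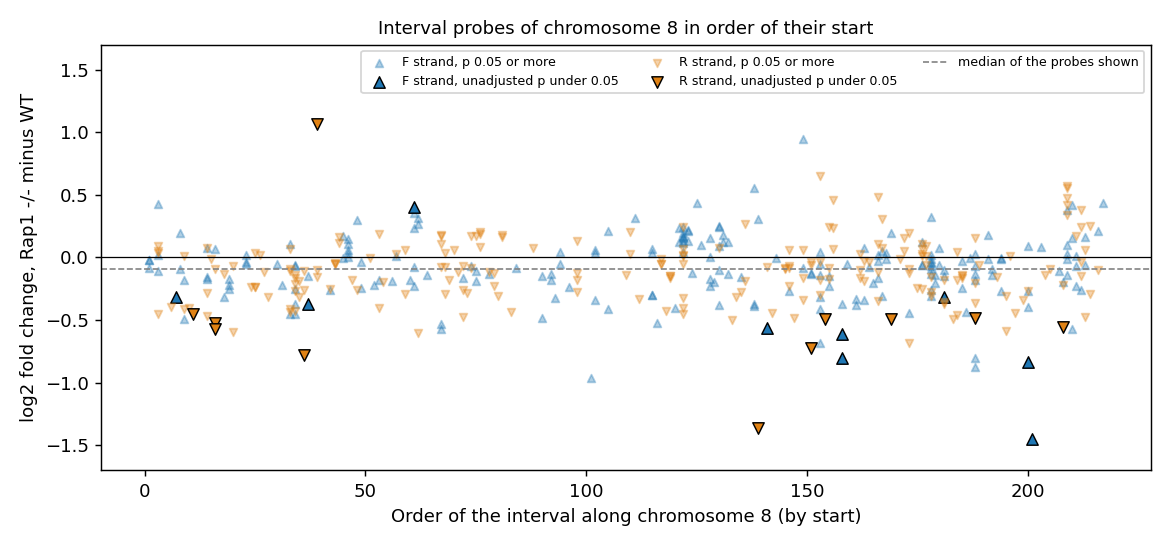
Log2 fold change, Rap1 -/- minus WT (y axis), of the 434 tested probes against the order of their interval along chromosome 8 (x axis). Upward triangles are F probes and downward triangles R probes, dark outlines mark an unadjusted p under 0.05, and most points lie within 0.5 of the line at 0, with a median of -0.09 (dashed).

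The probe with the smallest p lies in the interval chr8:83218278-83223553. A_30_P01028907, on its R strand, had levels of -2.00, -2.19, -3.62 and -2.59 in WT liver and -4.28, -4.07, -3.69 and -3.80 in Rap1-deficient liver. WT replicate 3 was close to the Rap1-deficient samples while the other WT samples stood above them, and the groups did not overlap. The log2 fold change was -1.36 (SE 0.33, 95% interval -2.11 to -0.61, limma adjusted p = 0.809), and it was -2.08 on slide 1 and -0.64 on slide 2. The probe was well above background on 4 WT and 2 Rap1-deficient arrays. With normexp correction and quantile normalization the log2 fold change was -0.34. The same held for most probes described below, since 16 of the 18 chosen by p or by size had fold changes smaller by over 1.5 times with normexp or in the authors' table, at a median of 23.5% of the value given. On the other strand of the same interval, the F probe A_30_P01032309 had levels from -4.40 to -3.33 in WT and from -4.31 to -3.03 in Rap1-deficient liver, with a log2 fold change of 0.31 (SE 0.31). The other F probes tested at this locus belong to the overlapping interval chr8:83210957-83219451. One of them, A_30_P01027176, had one of the 5 largest positive fold changes, 0.56 (SE 0.43), with Rap1 -/- replicate 4 at -1.73, while the other 3 were between -3.85 and -3.14 and the WT values between -4.11 and -2.98. Without Rap1 -/- replicate 4 it was 0.14. The other F probes of that interval had log2 fold changes of -0.37 and -0.39.

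The largest negative fold change was that of A_30_P01021047, an F probe of chr8:124364048-124365705. Its levels were -3.28, -2.99, -3.24 and -1.84 in WT and -5.00, -4.42, -3.91 and -3.81 in Rap1-deficient liver. All Rap1-deficient samples were below all WT samples, and WT replicate 4 stood above the other WT samples. The probe was well above background on 4 WT and 2 Rap1-deficient arrays. The log2 fold change was -1.45 (SE 0.37, 95% interval -2.29 to -0.61, adjusted p = 0.809), with -1.58 on slide 1 and -1.32 on slide 2. With normexp it was -0.33. This interval lies inside the longer interval chr8:124355710-124401160, whose F probe A_30_P01018445 also had groups that did not overlap, with WT levels of -3.65, -3.91, -3.86 and -2.83 and Rap1-deficient levels of -5.31, -4.10, -4.04 and -4.16. This second probe was well above background on 3 WT and 2 Rap1-deficient arrays. Its log2 fold change was -0.84 (SE 0.34), and it was -0.53 without Rap1 -/- replicate 1 and -0.10 with normexp or in the authors' table. Of the 5 tested F probes of the locus, 4 were below 0, with a median of -0.39 and a range from -1.45 to 0.09. Averaged over these 5 probes, the levels were -3.41, -3.34, -3.32 and -2.67 in WT and -3.97, -3.67, -3.68 and -3.70 in Rap1-deficient liver. The median was -0.22 under quantile normalization and -0.08 with normexp, with 4 of 5 below 0 in both. The 1 tested R probe of the locus, A_30_P01017696, had a log2 fold change of -0.27 (SE 0.23).

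In the locus chr8:26343277-26352902, which holds 3 intervals, all 15 tested probes had lower means in Rap1-deficient liver, 5 on F and 10 on R. Values below 0 were common, at 66.6% of all members tested and 64.5% of interval probes of other chromosomes. The outer interval was among the 5 with the most tested probes, with 10 of 10. The lowest p among the 15 was that of A_30_P01023451, an R probe of the inner interval chr8:26347473-26348052. Its WT levels were -2.37, -2.20, -1.87 and -2.89, and its Rap1-deficient levels -3.42, -3.14, -3.24 and -2.65. The groups overlapped, because WT replicate 4 lay below Rap1 -/- replicate 4. The log2 fold change was -0.78 (SE 0.24, adjusted p = 0.809), and the other 14 lay between -0.45 and -0.06. Averaged over the 10 R probes, the levels were -1.16, -0.62, -1.04 and -0.98 in WT and -1.30, -1.25, -1.49 and -0.92 in Rap1-deficient liver, where the Rap1-deficient replicate 4 was above 3 of the WT samples. All 15 stayed below 0 under each scaling tried, with R medians between -0.28 and -0.12. The 15 probes share a locus, and each scaling uses the same arrays, so these are not independent measurements. Within slide 2, 7 of the 10 R probes and 3 of the 5 F probes were below 0. The median of the R probes was -0.10 without WT replicate 2 and -0.35 without Rap1 -/- replicate 4.

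The locus with the most tested probes, chr8:72663591-72673010, went the other way on 1 of its strands. Its 13 tested F probes, from 3 overlapping intervals, all had higher means in Rap1-deficient liver, with log2 fold changes between 0.04 and 0.25 and a median of 0.17. The brightest of them, A_30_P01025554 in chr8:72663591-72671154, had levels of 3.41, 3.66, 3.71 and 3.54 in WT and 3.72, 3.80, 3.96 and 3.76 in Rap1-deficient liver, where the groups did not overlap. Its log2 fold change was 0.23 (SE 0.11, 95% interval -0.02 to 0.48). Averaged over the 13 probes, the levels were 0.69, 0.59, 0.76 and 0.71 in WT and 0.78, 0.91, 1.00 and 0.72 in Rap1-deficient liver, so that Rap1 -/- replicate 4 lay within the WT range. The 8 tested R probes of the locus were split, 4 above and 4 below 0, between -0.45 and 0.25. All 13 F probes stayed above 0 under each scaling tried, with medians between 0.11 and 0.17, and within each slide. The F median was 0.12 without Rap1 -/- replicate 3 and 0.22 without Rap1 -/- replicate 4. These probes share a locus, so they are not independent measurements.

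**Figure D3:**
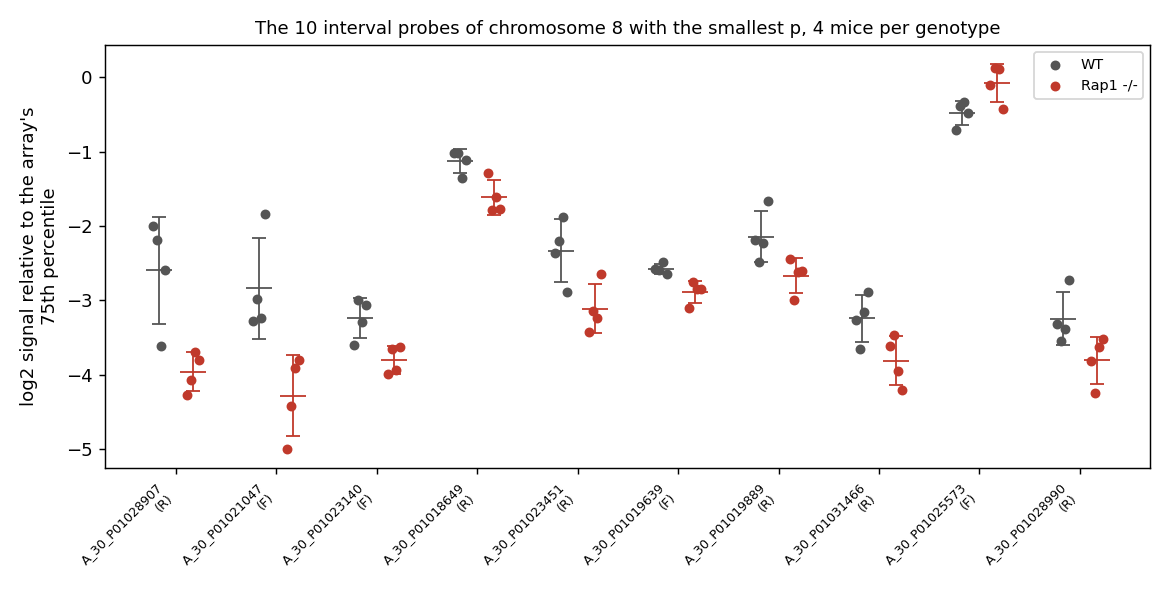
Level of the 10 tested probes with the smallest p (y axis, log2 signal with the 75th percentile of its array set to 0) in each of 4 WT and 4 Rap1 -/- livers, with the strand in brackets (x axis) and bars for the mean and SD. In 9 of the 10 the Rap1-deficient mean is lower, while A_30_P01025573 is higher, and in 4 of the 10 the groups do not overlap. The 10 were chosen by p on these same arrays, so these counts are no test. Over all 434 tested members, 1.15% were lower without overlap and 0.23% higher, against 1.81% and 2.39% of all probes.

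The remaining probes among the 10 with the smallest p were smaller in effect. A_30_P01023140, an F probe of chr8:85609155-85615170, had levels of -3.60, -2.99, -3.29 and -3.06 in WT and -3.99, -3.65, -3.94 and -3.63 in Rap1-deficient liver. The groups did not overlap by a narrow margin, and the log2 fold change was -0.57 (SE 0.16). A_30_P01019639, an F probe of chr8:12873805-12880007, had levels between -2.65 and -2.48 in WT and between -3.11 and -2.75 in Rap1-deficient liver. It had the smallest WT spread of the named probes, an SD of 0.07, and a log2 fold change of -0.31 (SE 0.11). A_30_P01018649, an R probe of chr8:91571643-91576878, was well above background on 8 arrays, with levels of -1.01, -1.02, -1.35 and -1.11 in WT and -1.28, -1.79, -1.61 and -1.77 in Rap1-deficient liver. Only Rap1 -/- replicate 1 lay inside the WT range, and the log2 fold change was -0.49 (SE 0.14). Both R probes A_30_P01019889 and A_30_P01031466 lie in chr8:18895366-18925423, with log2 fold changes of -0.52 (SE 0.19) and -0.57 (SE 0.21), and in both the groups overlapped. The second of these had -0.08 on slide 1 and -1.06 on slide 2, and was well above background on 3 WT and 2 Rap1-deficient arrays. A_30_P01028990, an R probe of chr8:125031410-125075960, had -0.56 (SE 0.22), and was well above background on 4 WT and 2 Rap1-deficient arrays. A_30_P01025573, an F probe of chr8:40100925-40196350, was the one with a higher mean, with levels of -0.71, -0.39, -0.33 and -0.48 in WT and -0.10, 0.12, 0.11 and -0.42 in Rap1-deficient liver. Rap1 -/- replicate 4 lay within the WT range, and the log2 fold change was 0.40 (SE 0.15). All of these had an adjusted p of 0.809.

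The 3 largest positive fold changes were those of dim probes with a wide spread in WT liver. A_30_P01018676, an R probe of chr8:26869173-26869823, had levels of -5.93, -4.98, -3.96 and -3.69 in WT and -3.29, -3.99, -3.70 and -3.32 in Rap1-deficient liver. It was well above background on 2 arrays of each genotype, and its log2 fold change of 1.07 (SE 0.45) was 1.81 on slide 1 and 0.32 on slide 2, 0.64 without WT replicate 1 and 0.24 with normexp. The other 2 tested R probes of that interval, A_30_P01022296 and A_30_P01032478, had -0.16 and -0.10. A_30_P01023866, an F probe of chr8:90000619-90061169, had 0.95 (SE 0.47), with WT levels from -5.40 to -3.39, and was above background on 1 WT and 3 Rap1-deficient arrays. Without WT replicate 1 it was 0.62. A_30_P01027888, an R probe of chr8:91569369-91594119, had WT levels from -6.12 to -2.30 and Rap1-deficient levels from -3.87 to -3.34. This probe was well above background on 1 WT and 4 Rap1-deficient arrays. Its log2 fold change was 0.65 (SE 0.67), with 1.41 on slide 1 and -0.10 on slide 2. It was 0.013 without WT replicate 1 and 1.29 without WT replicate 4.

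The other large negative fold changes had wide spreads within a genotype. A_30_P01024453, an F probe of chr8:60132300-60146830, had -0.96 (SE 0.56), with Rap1 -/- replicate 4 at -6.32 and the other 3 between -4.94 and -3.50. Without that sample it was -0.43. A_30_P01023631, an F probe of chr8:122920901-123008463, had -0.87 (SE 0.58), with WT levels from -4.02 to -2.06 and Rap1-deficient levels from -5.63 to -3.11. It was -0.37 without Rap1 -/- replicate 2 and -0.47 without WT replicate 4. In both probes the groups overlapped. The first was well above background on 3 WT and 1 Rap1-deficient arrays, and the second on 4 and 2.

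On the R strand of 1 locus, the tested probes varied strongly between mice and in the same way. Another of the 5 largest positive fold changes, 0.57 (SE 0.45), was that of A_30_P01022085, an R probe of chr8:126268510-126290810, with levels of 0.06, -1.54, -0.50 and -0.91 in WT and -0.29, -0.56, 1.03 and -0.80 in Rap1-deficient liver. The 5 tested R probes of this interval, with log2 fold changes of 0.34 to 0.57 and a median of 0.48, had their highest level in Rap1 -/- replicate 3 and their lowest in WT replicate 2. Averaged over the 5, the levels were -0.41, -1.95, -0.83 and -1.31 in WT and -0.90, -0.90, 0.56 and -1.37 in Rap1-deficient liver, so WT replicate 1 was above 3 of the 4 Rap1-deficient samples. Without Rap1 -/- replicate 3 the median of the R probes was 0.09, and without Rap1 -/- replicate 4 it was 0.71. The 8 tested F probes of the locus had a median of 0.06, with 5 above 0. Averaged over these 8 probes, the levels of all arrays lay between -1.73 and -1.18, a narrower spread than on R.

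In a further interval, chosen after its values were seen, all tested probes were lower, which was not particular to it. Of 62 interval strands with 3 or more tested probes, 17 had all below 0 and 6 all above 0. Of all members tested, 66.6% were below 0. The 3 tested F probes of chr8:96983590-96994419, A_30_P01023590, A_30_P01028457 and A_30_P01023799, had log2 fold changes of -0.80 (SE 0.34), -0.61 (SE 0.26) and -0.37 (SE 0.19). The first was above background on 3 WT and 1 Rap1-deficient arrays, and the last, above background on all 8, had levels from -2.48 to -1.80 in WT and from -2.71 to -2.29 in Rap1-deficient liver. The median of the 3 was -0.61, and it was -0.40 under quantile normalization and -0.09 with normexp. Within slide 2, 2 of the 3 were below 0.

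Other intervals with many tested probes held values of both signs, most of them below 0. In chr8:119732348-119749198 13 of 20 probes were tested and 11 were below 0, with a median of -0.09. The F probes of this locus, 14 with those of overlapping intervals, had a median of -0.41 within slide 1, where 13 were below 0, and 0.26 within slide 2, where 3 were. In chr8:91569369-91594119 10 of 20 probes were tested and 8 were below 0, with a median of -0.16 and a range from -0.69 to 0.65. In chr8:122920901-123008463 10 of 20 were tested and 8 were below 0, with a median of -0.19 and a range from -0.87 to 0.15. Over the chromosome, 27 strands of loci had 5 or more tested probes. All probes were below 0 on 3 of these strands, above 0 on 3, and mixed on 21. Among strands of single intervals, 62 had 3 or more tested probes. On these, all probes were below 0 on 17, above 0 on 6 and mixed on 39, so more strands leaned to lower values. The fold changes of probes on 1 strand of 1 interval spanned a median of 0.39, from 0.01 to 1.22. When the tested probes of each interval strand were averaged into 1 value, a choice made after seeing the data, 13 of 208 strands had an unadjusted p under 0.05 (6.25%, against 6.23% of all features), all 13 lower, and the smallest adjusted p was 0.788.

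Opposite strands of an interval were compared within each array, where a scaling factor common to all probes of the array cancels. Effects of background correction or quantile normalization that vary with brightness do not cancel. In 45 intervals of chromosome 8, among 629 on all chromosomes, both strands had a tested probe, and the mean of F minus the mean of R was compared between genotypes. No pair on chromosome 8 passed an adjusted p of 0.05 (smallest 0.462, background 0%), and 5 of the 45 (11.1%) had an unadjusted p under 0.05, against 5.72% of all pairs. Leaving out 1 array at a time gave 1 such pair (without Rap1 -/- replicate 1) to 6 (without WT replicate 3), with 2 without WT replicate 1 or WT replicate 4 and 3 without WT replicate 2 or Rap1 -/- replicate 2, and there was none within slide 2. In 4 of these 5 the difference was higher in Rap1-deficient liver and in 1 lower, beside 2.86% of all pairs in each direction. Both strands were lower in 23 intervals, both were higher in 3 and the strands went opposite ways in 19. The median size of the difference was 0.18, as it was over all 629 pairs.

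**Figure D4:**
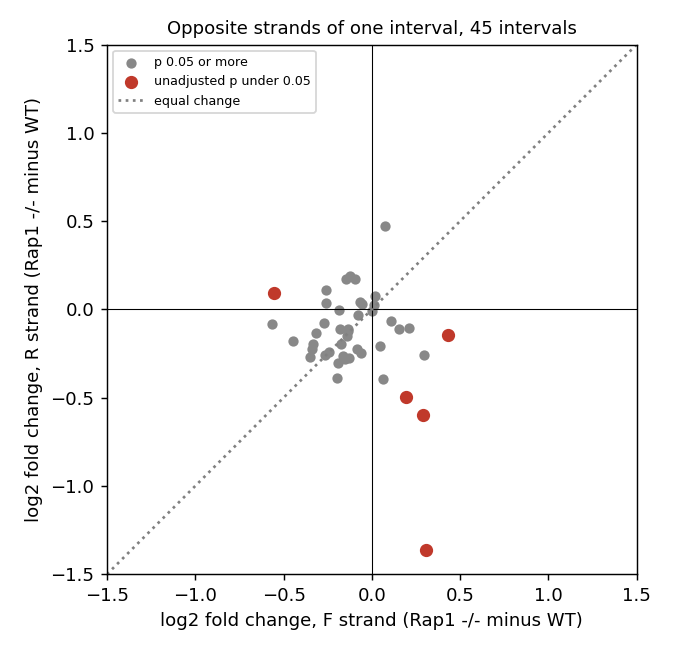
Log2 fold change, Rap1 -/- minus WT, of the F strand (x axis) against the R strand (y axis) for the 45 intervals with tested probes on both strands, with a dotted line of equal change. The 5 intervals with an unadjusted p under 0.05 for the difference are in red, and the lowest point is chr8:83218278-83223553, at 0.31 on F and -1.36 on R.

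The largest strand difference was that of chr8:83218278-83223553, whose R probe is described above. F minus R was -1.58, -1.96, 0.29 and -1.81 in WT and -0.03, 1.04, 0.29 and 0.33 in Rap1-deficient liver. WT replicate 3 lay among the Rap1-deficient values. The F level was -4.14 and -4.40 in WT replicates 2 and 4 and -4.31 in Rap1 -/- replicate 1. These lay below the lowest signal called well above background on the same arrays (-3.86, -3.96 and -3.43). So did the R level of Rap1 -/- replicate 1 (-4.28). For F minus R, the difference between genotypes was 1.67 (SE 0.46, 95% interval 0.65 to 2.69, limma adjusted p = 0.462). It was 2.27 on slide 1 and 1.07 on slide 2. Without WT replicate 3 it was 2.19 with an adjusted p of 0.0125, the only setting tried in which a pair of chromosome 8 passed the threshold. With normexp the difference was 0.48, and all 6 pairs described were smaller by over 1.5 times under that setting. The call without WT replicate 3 rests on leaving out 1 mouse and on 1 probe per strand.

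The next pairs were smaller. In chr8:41934312-41945487 F minus R was -2.94, -2.90, -2.90 and -2.21 in WT and -3.68, -3.67, -3.07 and -3.11 in Rap1-deficient liver, without overlap. The difference was -0.65 (SE 0.25, adjusted p = 0.782), since 2 F probes had log2 fold changes of -0.57 and -0.53 while the mean of 4 R probes was 0.09. In chr8:40238025-40264250 F minus R was 2.00, 3.45, 3.35 and 1.80 in WT and 3.50, 3.64, 3.47 and 3.55 in Rap1-deficient liver. The groups did not overlap, and the Rap1-deficient values were close together while the WT values fell into a higher and a lower pair. The difference was 0.89 (SE 0.37, adjusted p = 0.782), from 0.29 on F and -0.60 on R. In chr8:110197171-110206546 the difference was 0.69 (SE 0.26), with 1.27 on slide 1 and 0.10 on slide 2. In chr8:90000619-90061169 it was 0.58 (SE 0.26) and rested on A_30_P01023866, since with the brightest probe of each strand it was -0.15. In chr8:18895366-18925423 it was 0.46 (SE 0.23).

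The brightest interval probes differed little between genotypes. A_30_P01032305, an F probe of chr8:48476637-48492537, had levels of 4.95, 5.18, 4.98 and 5.24 in WT and 4.84, 5.09, 5.13 and 4.87 in Rap1-deficient liver. The groups overlapped, and the log2 fold change was -0.11 (95% interval -0.38 to 0.16). A_30_P01028077, an R probe of chr8:47755709-47824779, had -0.29 (95% interval -0.71 to 0.13). For the 20 brightest members the log2 fold change lay between -0.29 and 0.23. The median SE over the 434 members was 0.20, against 0.16 over all probes.

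**Figure D5:**
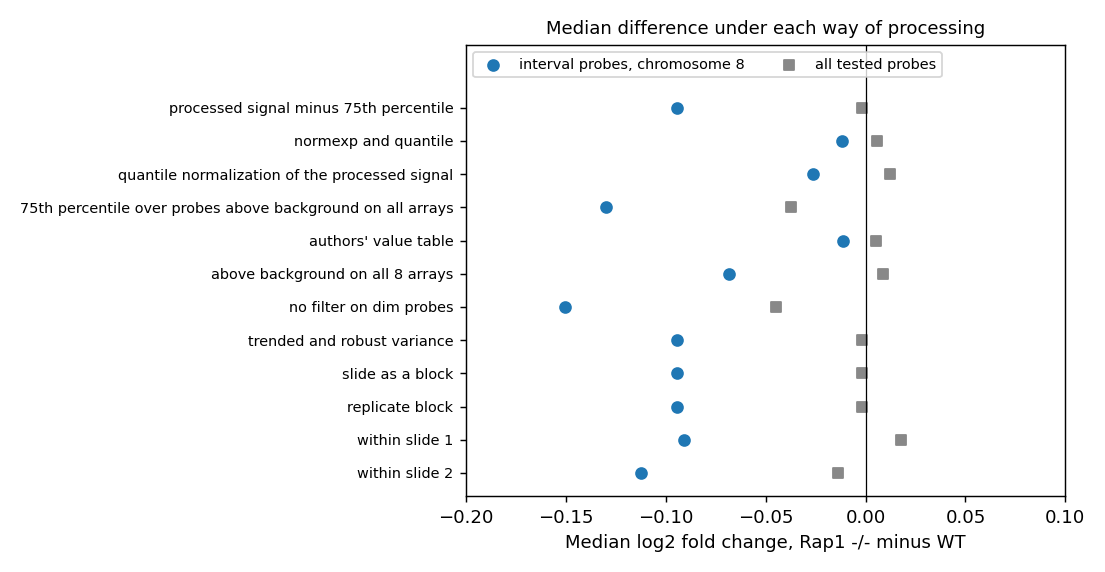
Median log2 fold change, Rap1 -/- minus WT (x axis), under each way of processing (y axis), for the tested interval probes of chromosome 8 (circles) and all tested probes (squares). The members' median lies between -0.15 and -0.07 on scales set by the 75th percentile and between -0.03 and -0.01 with quantile normalization or in the authors' table.

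Known long noncoding RNA genes were set beside the intervals. Of 23 listed genes, 15 had a tested probe and none passed the adjusted p. Of the 15, 1 had an unadjusted p under 0.05, beside 6.12% of all probes tested. Below 0 were 9, with a median of -0.03 over the 15. The 3 with the smallest p were Jpx, an activator of Xist in X inactivation, at 0.45 (SE 0.19), Snhg12, a small nucleolar RNA host gene, at -0.34 (SE 0.16), and Malat1, an abundant nuclear RNA, at 0.45 (SE 0.21). Their adjusted p-values were 0.809, 0.819 and 0.819. Jpx was well above background on only 1 WT and 3 Rap1-deficient arrays, while Snhg12 and Malat1 were on 4 of each genotype.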

How the data were processed

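Liver RNA of 4 wild-type and 4 Rap1 -/- mice was labelled with Cy3 and read on single-colour Agilent arrays. RNA integrity numbers were 6.5 to 8.5 per the labels. Per the file headers, Agilent Feature Extraction 10.7.3.1 made the intensity values, and the processed intensity deposited by the authors had its background subtracted but no scaling from array to array. A log2 value table was deposited as well, made by the authors with limma according to the submitters' processing notes. It lay within 0.05 of normexp-corrected, quantile-normalized values for 99.5% of values (column medians 6.39 to 6.40).

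Control spots and outlier spots were left out, and repeated spots of a probe were averaged. Each array's 75th percentile was subtracted from the log2 processed signal. Probes well above background on at least 4 of 8 arrays were tested with limma 3.58.1 (lmFit, eBayes) in R 4.3.3, with Benjamini-Hochberg adjustment over 31068 probes. Strand differences were tested likewise over 629 intervals. The steps were tested on simulated data. For normexp (offset 50) the median spot signal and the background median were used, and the mean signal was not used here. The number of arrays limits the precision.

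Probes described are the 10 with the smallest p, the 5 largest rises and the 5 largest falls. Rises and falls were taken among probes well above background on at least 1 array of each genotype. The 6 strand pairs with the smallest p and the 5 intervals with the most tested probes were described too. Others were added after their values were seen: the whole loci around these, the interval of 3 dim F probes and the brightest probes. The members and lists were chosen with earlier results of these data known. Alternatives were other scalings, the authors' table, other filters and variance models, slide or replicate number as a block, each slide alone and leaving out each array.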

Additional observations from a re-analysis of the deposited data

Results flagged for a closer look

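In 50 groups of 4 arrays checked (each genotype of the named probes and strand pairs, and of the counts above background), 3 had 1 array far from the other 3, where chance gives about 1 in 20. The F probe A_30_P01018445 of chr8:124355710-124401160 was at -5.31 in Rap1 -/- replicate 1, against -4.16 to -4.04 in the other Rap1-deficient livers. The strand difference, F minus R, of chr8:83218278-83223553 was 0.29 in WT replicate 3, against -1.96 to -1.58 in the other WT livers. The strand difference of chr8:41934312-41945487 was -2.21 in WT replicate 4, against -2.94 to -2.90 in the other WT livers.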

How the results depend on the processing

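The count of chromosome 8 interval probes past an adjusted p of 0.05 was 0 under every alternative run, and so was the count of strand pairs, except that it was 1 without WT replicate 3 (chr8:83218278-83223553, 2.19, adjusted p = 0.0125). The number at an unadjusted p under 0.05, 20 in the reported values, was 7 with normexp and quantile normalization, 7 in the authors' table, 9 among probes above background on all 8 arrays, 13 with a trended and robust variance, 13 over means of interval strands (added after seeing the data) and 35 without a filter on dim probes. Leaving out 1 array at a time gave 14 (without WT replicate 4) to 34 (without WT replicate 2) such probes, medians of -0.12 to -0.08, 0 to 1 strand pairs, and differences in probes above background of -74.9 to -14.9. The labels give both genotypes the same replicate numbers, and same-numbered arrays also share a slide. Such arrays deviated together only weakly (correlations of 0.15, -0.09, 0.02 and 0.10). Whether they share anything beyond the number and the slide cannot be told from these values. With the replicate number as a block, 40 probes had an unadjusted p under 0.05 (9.22%, against 6.59% of all probes), and none passed the adjusted p. Values of named probes kept their direction in 327 of 328 cases, the exception being A_30_P01027888 within slide 2 (-0.10), but their sizes were smaller by over 1.5 times in 16 of 18 with normexp or in the authors' table, and in 3 of 18 with quantile normalization of the processed signal. The strand difference of chr8:90000619-90061169 turned to -0.0315 with probes above background on all 8 arrays and to -0.15 with the brightest probe of each strand. The cause of these changes was not tested, except that fewer or more probes were tested under another filter. Many members are dim, and signal close to background limits what their fold changes can show.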
